A study of Mus musculus with 3 samples.

Results

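The 9 genes described here encode proteins of the tight junction: the claudins *Cldn5* and *Cldn12*, the junctional membrane proteins *Ocln*, *Marveld2*, *Lsr*, *Jam2* and *F11r*, and the cytoplasmic scaffolds *Tjp1* and *Cgnl1*. They were chosen by name, as 9 of the 33696 genes in the count tables, and were read in endothelial cells (ECs) with the other retinal cell classes as background. The cells came from retinas of C57BL/6 mice at postnatal day 6, while the vascular plexus is still growing, after magnetic enrichment with CD31 and CD11b beads, and were profiled by droplet 3′ RNA sequencing with unique molecular identifiers (UMIs). There was 1 library for each of 3 genotypes: wild type (WT); *Tspan12* KO, a constitutive knockout of the Norrin co-receptor TSPAN12; and *Ctnnb1* cKO, which carries *Ctnnb1* flox/flox and loses beta-catenin in ECs through tamoxifen-induced Pdgfb-iCreER given in the first postnatal days. Retinas of several mice of a genotype were pooled, and the WT animals came from other litters than the mutants. Whether the WT mice carried Cre or received tamoxifen was not given in the sources used here. With 1 library per genotype there is no replicate check and no test, so genotype and library cannot be told apart, and every interval below covers counting error only.

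Tight junctions seal the cleft between neighbouring endothelial cells and form the paracellular part of the blood-retina barrier. Claudins and occludin span the membrane as strands, angulins such as LSR and the occludin relative tricellulin (*Marveld2*) gather where 3 cells meet, junctional adhesion molecules hold the membranes together, and ZO-1 (*Tjp1*) and paracingulin (*Cgnl1*) anchor these proteins to actin. In retinal vessels the barrier is built as the vessels mature, under Norrin signalling through FZD4, LRP5 and TSPAN12 to beta-catenin.

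The sequences just upstream of the start sites were read for motifs, because several of these genes were lower in the same knockout. RefSeq windows of 250 bases before each start (GRCm38.p6) were at hand for 8 of the 9 genes, *Jam2* having no entry, and gave 12 windows. The TCF/LEF motif CTTTGAT, read on both strands, was in 0 of the 12 windows and in 3.21% of all 32851 windows of that length. The SOX motif ATTGTT (9.42% of all windows) and the ETS motif ACCGGAAG (1.72%) were also in 0 of the 12. The E-box CAGGTG, or CACCTG on the other strand, was in 3 of the 12 windows, against 17.2% of all windows. The 4 windows printed are *Cldn5* (chr16:18776597-18776846, plus strand), the second start of *Ocln* (chr13:100552499-100552748, minus strand), *Lsr* (chr7:30973470-30973719, minus strand) and *F11r* (chr1:171437311-171437560, plus strand). The first 3 genes were lower in *Ctnnb1* cKO ECs and *F11r* was not, and capitals mark each E-box.
Cldn5: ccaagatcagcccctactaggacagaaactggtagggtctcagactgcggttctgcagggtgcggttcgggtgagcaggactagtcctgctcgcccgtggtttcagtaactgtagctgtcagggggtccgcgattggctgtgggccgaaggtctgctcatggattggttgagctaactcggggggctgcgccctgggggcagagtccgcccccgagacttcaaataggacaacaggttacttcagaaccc
Ocln: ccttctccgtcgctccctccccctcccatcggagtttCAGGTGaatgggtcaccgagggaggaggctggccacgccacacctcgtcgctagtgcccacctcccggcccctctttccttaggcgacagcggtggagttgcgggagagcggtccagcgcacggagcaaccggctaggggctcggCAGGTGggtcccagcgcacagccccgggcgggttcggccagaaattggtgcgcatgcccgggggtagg
Lsr: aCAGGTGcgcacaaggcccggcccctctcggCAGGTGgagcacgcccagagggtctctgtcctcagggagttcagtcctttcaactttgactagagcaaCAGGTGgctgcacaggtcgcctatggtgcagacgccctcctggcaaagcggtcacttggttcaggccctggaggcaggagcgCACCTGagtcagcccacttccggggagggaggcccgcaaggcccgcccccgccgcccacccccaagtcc
F11r: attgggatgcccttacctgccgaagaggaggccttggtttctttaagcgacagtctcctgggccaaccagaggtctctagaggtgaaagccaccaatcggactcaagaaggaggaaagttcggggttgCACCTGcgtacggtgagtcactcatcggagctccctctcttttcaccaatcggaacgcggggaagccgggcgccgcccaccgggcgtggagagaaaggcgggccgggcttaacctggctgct
*Lsr* held 4 E-boxes, which only 14 of all windows (0.0426%) did, *Ocln* held 2 (2 or more in 2.06% of all windows), *F11r* held 1 and *Cldn5* held 0. A match is a description of these letters and no evidence of binding, and these windows do not cover more distant elements.

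After filtering and removal of likely doublets, 8989 cells of the WT library, 12732 of *Tspan12* KO and 8451 of *Ctnnb1* cKO were kept, of which 537, 293 and 2714 were ECs. The sums behind each value were 16123945, 6522394 and 12903630 EC UMIs, and the median EC held 15891, 14600 and 3362 UMIs, so the *Ctnnb1* cKO value rests on many shallow cells. All 10 endothelial markers were detected in each library, and their summed level was alike (6226, 6873 and 6890 CPM, a gene's UMIs scaled to a common total). RNA of other cells differed: the sum of 7 erythrocyte markers was 159, 3010 and 247 CPM and that of 8 microglial markers 135, 105 and 569 CPM in WT, *Tspan12* KO and *Ctnnb1* cKO ECs, and their part in the values given here was not tested. The *Ctnnb1* cKO library also stood apart in the median mitochondrial share of its ECs, 3.81, 2.29 and 0.375%, and in the interferon-response genes *Isg15* (18.7, 10.3 and 166 CPM) and *Ifit1* (2.54, 2.15 and 81.1 CPM), whose part was likewise not tested. No clustering step used the tight junction genes. Library pairs shared between 21 and 37 cell barcodes, at most 1 of them an EC. The targeted transcripts were not absent from ECs: *Tspan12* was 95.8, 85.4 and 40.1 CPM and *Ctnnb1* 524, 612 and 445 CPM, and 3′ counting need not register a deletion elsewhere in the transcript.

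The members differed in how far other retinal cells shared them. *Cldn5*, *Ocln*, *Lsr* and *Cgnl1* were far higher in WT ECs than in the pooled named non-endothelial cells, by 5.35, 5.54, 4.15 and 4.46 on the log2 scale. *Ocln* reached no more than 1.72 CPM in any other WT class of at least 50 cells, against 64.5 CPM in ECs. The class named retinal pigment epithelium, almost absent from the WT library, also carried *Ocln*. It held 25.6 CPM (14.6 to 41.5) in 49 *Tspan12* KO cells and 11.8 CPM (3.84 to 27.6) in 97 *Ctnnb1* cKO cells. That class also held *Lsr* (22.4 and 11.8 CPM), *F11r* (30.3 and 42.5 CPM) and *Cgnl1* (59.1 and 94.5 CPM). The class took its name from 4 of 8 markers and was led by *Ttr*, *Crhbp* and *Optc*. The 8 markers summed to 4921 CPM in the first of these sets and only 175 CPM in the second. The values of this class therefore cannot be placed in retinal pigment epithelium. *Cgnl1* was not limited to ECs: the few astrocytes, 21, 48 and 19 cells, held 318 CPM (240 to 414), 353 CPM (307 to 404) and 316 CPM (168 to 540), above the 144, 200 and 193 CPM of ECs in WT and *Tspan12* KO and with an overlapping interval in *Ctnnb1* cKO. The next class of at least 50 cells after ECs for *Lsr* was the progenitors, at 15.4 CPM in WT. *Marveld2* was 10.4 CPM in WT ECs and 3.80 CPM in WT microglia, the next class. In *Ctnnb1* cKO, where its counts were sparse in the other classes, ECs were not set apart: neurogenic precursors held 13.5 CPM (2.78 to 39.4) and ECs 8.06 CPM.

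*F11r* and *Tjp1* had a second cell class at the endothelial level. *F11r*, which encodes JAM-A, was 150, 142 and 161 CPM in microglia of WT, *Tspan12* KO and *Ctnnb1* cKO, and 120, 97.4 and 156 CPM in ECs. Microglia were above ECs in WT and *Tspan12* KO, with intervals that overlapped only in *Ctnnb1* cKO, and no other WT class of at least 50 cells passed 5.60 CPM. Smaller WT classes did, with 85.0 CPM in 15 mural, 65.3 CPM in 23 neutrophil and 34.7 CPM in 21 astrocyte cells. The 15 mural cells also held the endothelial transcripts *Pecam1* (338 CPM) and *Cdh5* (505 CPM), so their *F11r* cannot be placed in mural cells. *Tjp1* was 324, 278 and 248 CPM in amacrine cells against 377, 394 and 253 CPM in ECs, the intervals again overlapping only in *Ctnnb1* cKO.

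*Jam2* and *Cldn12* were higher in neural cells than in ECs. For *Jam2*, which encodes JAM-B, neurogenic precursors (363 CPM, 349 to 378) and rods (347 CPM, 334 to 361) led in WT, with overlapping intervals, followed by cones at 309 CPM, bipolar cells at 292 CPM and amacrine cells at 134 CPM. ECs came sixth of the 8 WT classes of at least 50 cells at 113 CPM, above progenitors (56.6 CPM) and microglia (36.9 CPM). *Cldn12* was highest in WT progenitors at 24.2 CPM and was 4.22 CPM in ECs, seventh of 8 classes. The log2 difference between ECs and the named non-endothelial cells was -0.99, -1.55 and -0.9997 for *Jam2* and -1.37, -1.65 and -0.81 for *Cldn12* in WT, *Tspan12* KO and *Ctnnb1* cKO.

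*Cldn5* was also counted in rods and microglia at a low level, and so were other endothelial transcripts. Rods, which should lack it, held 72.3, 22.8 and 89.4 CPM of *Cldn5*, or 1.96, 1.08 and 5.34% of the EC level in WT, *Tspan12* KO and *Ctnnb1* cKO. The corresponding shares for *Pecam1* were 1.16, 0.75 and 4.72%, and for *Cdh5* 1.36, 0.67 and 3.94%. ECs made up 5.97, 2.30 and 32.1% of the cells of the same libraries. The low level in rods moved with the libraries in the same order for the 3 genes. It is taken as background here, though its source was not tested. The mural class stood far above that level, with 1244 CPM of *Cldn5* in 60 *Tspan12* KO cells and 865 CPM in 82 *Ctnnb1* cKO cells. The mural class also held *Pecam1* (302 and 367 CPM) and *Cdh5* (795 and 569 CPM), so endothelial RNA or cells were in that class. In *Tspan12* KO, *Cldn5* was also above the rod level in 48 astrocytes (214 CPM, 178 to 254) and 54 erythrocytes (118 CPM, 68.8 to 189).

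**Figure D1:**
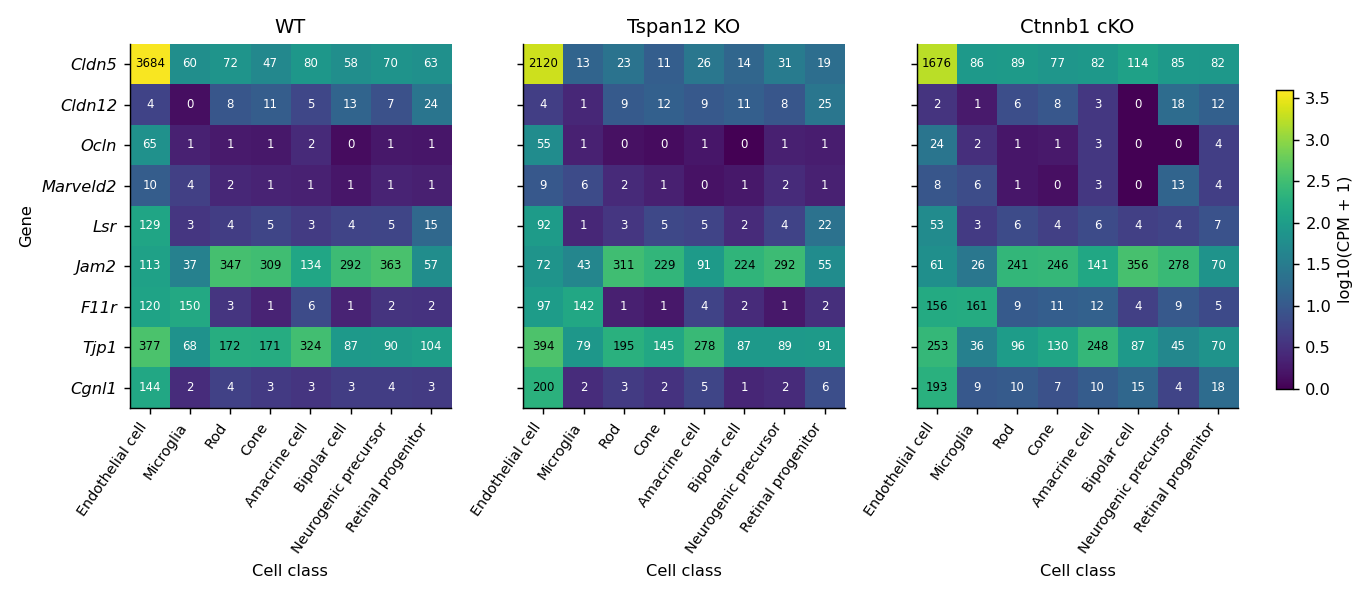
Levels of the 9 tight junction genes in 8 cell classes of each library, with colour on a log10(CPM + 1) scale and the CPM printed in each square. Among these 8 classes, *Cldn5*, *Ocln*, *Lsr* and *Cgnl1* were highest in ECs, *F11r* in ECs and microglia, and *Jam2* in WT neurogenic precursors and rods.

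In ECs, most of the members were lower in *Ctnnb1* cKO than in WT, fewer were lower in *Tspan12* KO, and the scaffold *Cgnl1* was above WT in both but short of 1.5-fold. A gene was called where its level differed at least 1.5-fold. In *Tspan12* KO, 2 of 9 members were called lower, *Cldn5* and *Jam2*, and 0 higher, while 10.3% of the 12208 genes with enough counts were lower and 8.96% higher. In *Ctnnb1* cKO, 5 of 9 were called lower, *Cldn5*, *Ocln*, *Lsr*, *Jam2* and *Cldn12*, and 0 higher, where 25.9% of 12813 genes were lower and 16.8% higher. Scaling by the trimmed mean of M values (TMM) changed the *Ctnnb1* cKO background to 20.1% lower and 21.6% higher and left 5 members called lower. It moved every *Ctnnb1* cKO ratio up by 0.14 on the log2 scale, and the intervals of *Cldn12* (-1.28 to 0.0035) and *Marveld2* (-0.59 to 0.13) then included 0. The median log2 ratio of the members was -0.25 in *Tspan12* KO and -0.77 in *Ctnnb1* cKO, beside 0.01 and -0.12 for all genes tested. Both knockouts were set against the same WT library, so an error in the WT value enters both ratios.

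The claudin *Cldn5* (ENSMUSG00000041378), the main strand-forming claudin of neural microvessels, was lowest in *Ctnnb1* cKO ECs. WT ECs held 3684 CPM (59401 UMIs), *Tspan12* KO ECs 2120 CPM (13828 UMIs) and *Ctnnb1* cKO ECs 1676 CPM (21622 UMIs), with no overlap of intervals. Cell by cell, after thinning each EC to 2000 UMIs, the median EC held 8, 4 and 3 *Cldn5* UMIs, and the range from the 10th to the 90th percentile was 3 to 16, 1 to 10 and 0 to 7. The whole distribution was thus lower in both knockouts, and only 9 of 520, 21 of 261 and 192 of 1889 thinned ECs had no *Cldn5* UMI.

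The share of thinned ECs with a *Cldn5* UMI was 98.3, 92.0 and 89.8%, and 99.4, 95.9 and 91.0% of ECs without thinning. Rods thinned in the same way gave 14.0, 3.98 and 14.4% in the same libraries, the level read as background. Thinning left out 17, 32 and 825 ECs below 2000 UMIs. Before thinning, the median rod held 3317, 2008.5 and 1431.5 UMIs.

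*Cldn12* (ENSMUSG00000046798), a second claudin, was scarce in ECs. The WT, *Tspan12* KO and *Ctnnb1* cKO levels were 4.22, 3.68 and 2.48 CPM, from 68, 24 and 32 UMIs. Set against WT, the log2 ratio of *Tspan12* KO was -0.20 with an interval of -0.93 to 0.49 that includes 0, and for *Ctnnb1* cKO it was -0.77 (-1.42 to -0.14).

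Occludin (*Ocln*, ENSMUSG00000021638), the MARVEL-domain protein of the strands, separated the 2 knockouts. WT ECs had 64.5 CPM (60.6 to 68.5), *Tspan12* KO ECs 55.3 CPM (49.8 to 61.4) and *Ctnnb1* cKO ECs 23.9 CPM (21.3 to 26.7). Relative to WT, *Tspan12* KO ECs differed by -0.22 on the log2 scale (-0.40 to -0.05), whereas *Ctnnb1* cKO ECs differed by -1.43 (-1.62 to -1.25), the lowest ratio of the 9 members in that library. At 2000 UMIs per cell, 15.4% of WT ECs had an *Ocln* UMI (12.4 to 18.8), 11.1% of *Tspan12* KO ECs (7.57 to 15.6) and 4.45% of *Ctnnb1* cKO ECs (3.56 to 5.48), against at most 0.153% of rods. Without thinning the shares were 62.9, 49.5 and 9.40%, in cells of the unequal median depths given above.

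Of the proteins of tricellular contacts, *Lsr* was lower in *Ctnnb1* cKO and *Marveld2* was too sparse to place. *Lsr* (ENSMUSG00000001247), which encodes angulin-1, went from 129 CPM in WT to 92.3 CPM with *Tspan12* knocked out and 53.1 CPM with *Ctnnb1* deleted. As log2 ratios these were -0.49 (-0.62 to -0.35) and -1.28 (-1.41 to -1.16), and no interval of the 3 levels overlapped another. *Marveld2* (ENSMUSG00000021636), which encodes the tricellulin that angulins recruit, was 10.4, 8.74 and 8.06 CPM from 168, 57 and 104 UMIs. Relative to WT this was -0.25 (-0.71 to 0.19) for *Tspan12* KO and -0.37 (-0.74 to -0.01) for *Ctnnb1* cKO on the log2 scale, short of 1.5-fold in both.

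The 2 junctional adhesion molecules went apart in *Ctnnb1* cKO ECs. *Jam2* (ENSMUSG00000053062) was 113, 71.8 and 61.1 CPM in WT, *Tspan12* KO and *Ctnnb1* cKO, the log2 ratios being -0.65 (-0.80 to -0.50) and -0.88 (-1.004 to -0.76). *F11r* (ENSMUSG00000038235) was 120, 97.4 and 156 CPM in the same order, or -0.30 (-0.43 to -0.17) and 0.38 (0.29 to 0.47) relative to WT on the log2 scale. *F11r* was thus below WT in *Tspan12* KO and above it in *Ctnnb1* cKO, within 1.5-fold each time. Summed microglial markers were also above WT in *Ctnnb1* cKO ECs, and microglia carry *F11r*. Their part in the *F11r* value was not tested.

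Of the scaffolds, *Tjp1* was close to WT in *Tspan12* KO ECs and *Cgnl1* was above WT in both knockouts. *Tjp1* (ENSMUSG00000030516) was 377, 394 and 253 CPM in WT, *Tspan12* KO and *Ctnnb1* cKO, which gave log2 ratios of 0.07 and -0.57 (-0.64 to -0.51). The second value lay just inside the 1.5-fold limit of 0.58. *Cgnl1* (ENSMUSG00000032232) was 144, 200 and 193 CPM, so that the knockouts stood 0.47 (0.37 to 0.57) and 0.42 (0.34 to 0.50) above WT on the log2 scale, neither past 1.5-fold. Of the 9 members, *Cgnl1* alone had an interval above 0 in both knockouts, but its ratios were 0.07 and 0.012 without subclusters made up of 1 library and 0.12 and 0.19 in the EC cluster shared by the 3 libraries.

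**Figure D2:**
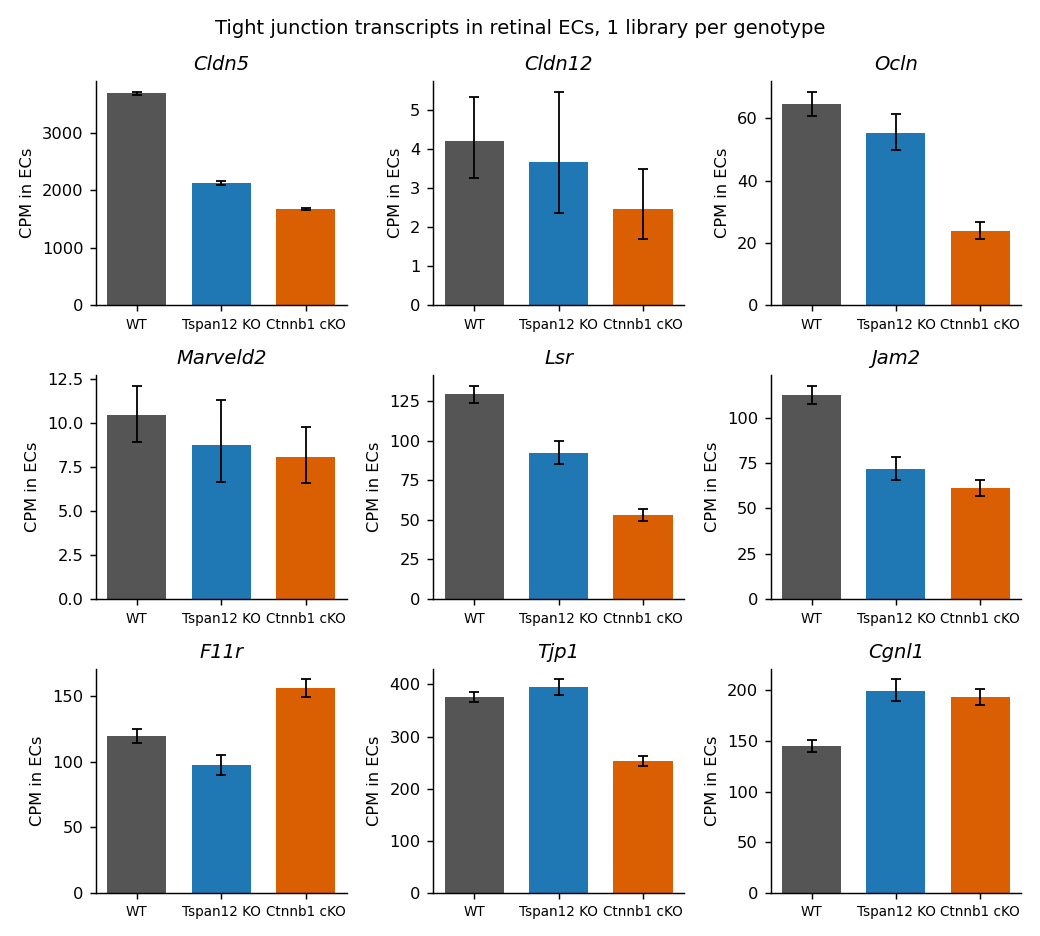
Level of each member in ECs (CPM) in the WT, *Tspan12* KO and *Ctnnb1* cKO libraries, with bars for the pooled level and error bars for the exact Poisson 95% interval. *Cldn5*, *Lsr* and *Jam2* stepped down from WT to *Tspan12* KO to *Ctnnb1* cKO, *Ocln* was lowest in *Ctnnb1* cKO, and *Cgnl1* was lowest in WT.

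**Figure D3:**
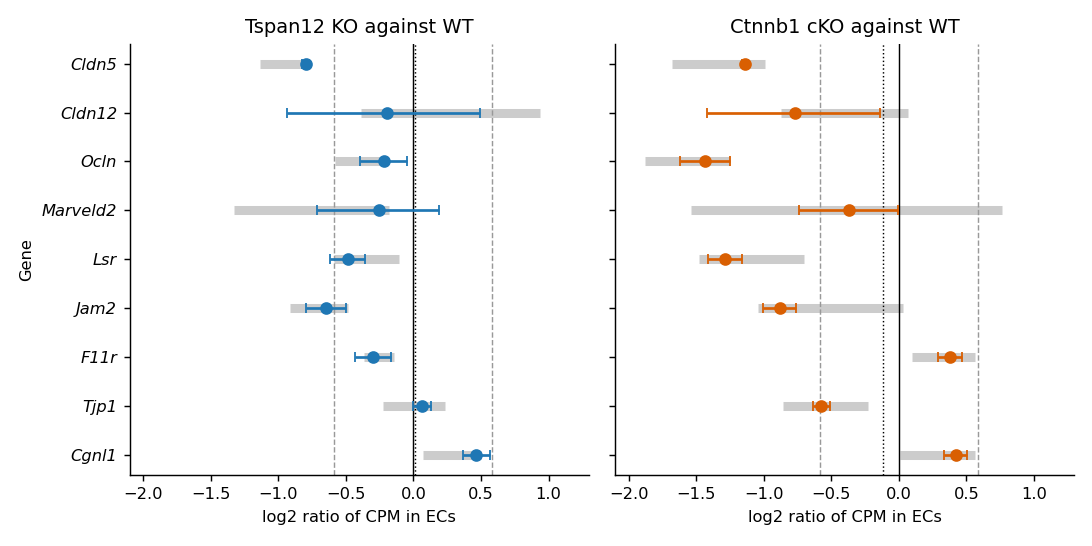
Log2 ratio of each member in ECs of each knockout to WT, with its counting interval as a line and the range over 12 processing alternatives as a grey bar. Dashed lines mark 1.5-fold and the dotted line the median of all genes, and in *Ctnnb1* cKO the grey bars of *Cldn5*, *Ocln* and *Lsr* stayed beyond the lower dashed line.

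In a pooled level, fewer cells of a subtype and less RNA per cell cannot be told apart, so the members were also described within subtypes. In WT, the arterial-like ECs (49 cells, named on 9 of 9 arterial markers) carried more of most members than the other WT ECs. *Jam2* was 257 CPM in arterial-like and 102 CPM in other ECs, a log2 difference of 1.34, and *Ocln* was 101 against 61.8 CPM (0.71). *Cgnl1*, *Lsr* and *Cldn5* were higher by 1.06, 0.74 and 0.37. *Cldn12*, at 1.04 (-0.16 to 2.06), and *Marveld2*, at -0.39 (-1.55 to 0.57), were within counting error. High levels were not particular to arterial-like ECs. The 87 WT ECs named capillary held more *Cldn5* (5189 against 4666 CPM) and *Tjp1* (632 against 506 CPM) than arterial-like ECs. They held less *Jam2* (151 against 257 CPM), *Lsr* (132 against 206 CPM) and *Cgnl1* (210 against 280 CPM). For the other members, *Ocln* included, the intervals of the capillary and arterial-like sets overlapped.

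The WT tip-like ECs, a small set of 21 deep cells (median 41489 UMIs) led by *Esm1* and *Angpt2*, were the opposite. *Ocln* was 8.99 CPM there and 68.2 CPM in the other WT ECs, a log2 difference of -2.92 (-4.06 to -1.99) from 9 UMIs. *Lsr* was 17.0 against 137 CPM, a difference of -3.01 (-3.79 to -2.33) from 17 UMIs, and *Cldn5* was 2000 against 3796 CPM (-0.92). *F11r* and *Cgnl1* did not share that gap, with differences of 0.23 (-0.03 to 0.48) and -0.20. The proliferative-like WT ECs (141 cells) lay between, with *Cldn5* at -0.60 and *Jam2* at -0.79 relative to the other WT ECs.

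**Figure D4:**
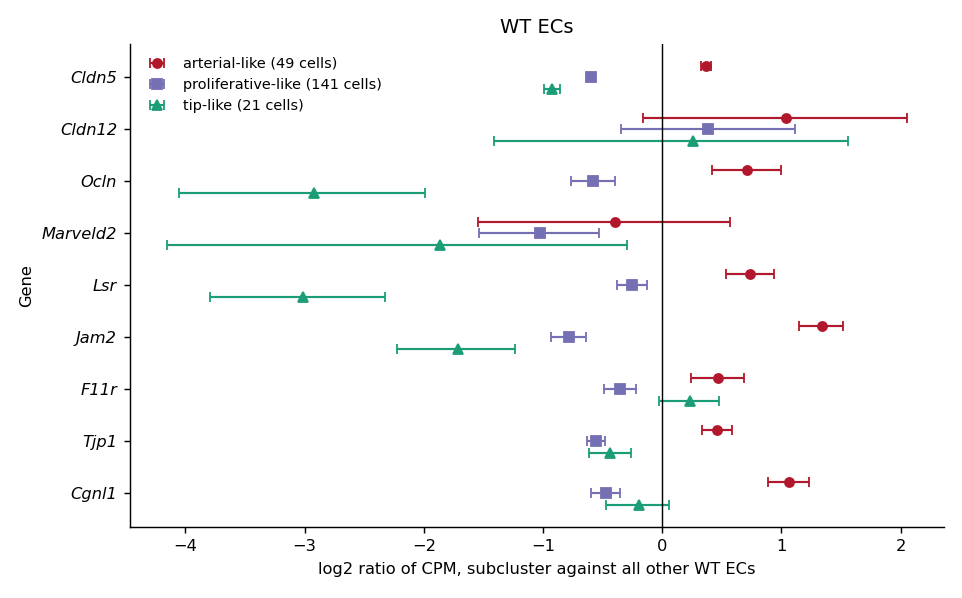
Log2 difference of each member between one WT endothelial subtype and all other WT ECs, for arterial-like (49 cells), proliferative-like (141 cells) and tip-like ECs (21 cells), with counting intervals. *Ocln* and *Lsr* were above 0 in arterial-like and far below 0 in tip-like ECs. The WT ECs named capillary are not drawn.

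Arterial-like ECs were found in each library, with 49, 62 and 357 cells, though only 5 of 9 arterial markers counted towards that name in the *Tspan12* KO set. *Cldn5* was 4666 CPM in WT and 2480 CPM in *Ctnnb1* cKO arterial-like ECs, a log2 ratio of -0.91, and -0.72 in *Tspan12* KO. *Ocln* was 101 CPM in WT and 58.2 CPM in *Ctnnb1* cKO (-0.80), and -0.64 (-1.13 to -0.17) on the log2 scale in *Tspan12* KO. *Lsr* was 206 and 91.2 CPM in WT and *Ctnnb1* cKO (-1.18), with -0.08 (-0.38 to 0.21) in *Tspan12* KO. The lower *Cldn5*, *Ocln* and *Lsr* of *Ctnnb1* cKO ECs was therefore also present within arterial-like cells. *Cgnl1* reversed here in *Tspan12* KO, at -0.70 (-0.99 to -0.41), while in *Ctnnb1* cKO it was 0.41. The sets named tip went the other way for *Ocln* and *Lsr*. *Ocln* was 8.99 CPM in 21 WT and 25.7 CPM (20.2 to 32.1) in 655 *Ctnnb1* cKO cells. *Lsr* was 17.0 and 80.7 CPM (70.8 to 91.6), and *Cldn5* 2000 and 1769 CPM. The 2 sets were unlike: the *Ctnnb1* cKO set was named on 3 tip markers, against 7 in WT, and was led by *Apod* and *Dach1*.

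Of thinned WT ECs, 38.3% were cycling (34.1 to 42.6). The *Tspan12* KO share was 29.5% (24.0 to 35.4), whose interval overlaps that of WT, and the *Ctnnb1* cKO share 30.1% (28.1 to 32.2). Cycling WT ECs carried less of several members than ECs that were not cycling: *Cldn5* was 3003 against 4415 CPM, a log2 difference of -0.56, and *Jam2* and *Ocln* differed by -0.81 and -0.72. *Cldn5* was lower in *Ctnnb1* cKO among cycling ECs (log2 ratio -1.07) and among the others (-1.31), and likewise in *Tspan12* KO (-1.06 and -0.77).

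*Ocln* was -1.39 in cycling and -1.70 in other ECs of *Ctnnb1* cKO on the log2 scale, and -0.27 and -0.30 in *Tspan12* KO. *Lsr* was -1.08 and -1.59 in *Ctnnb1* cKO, and -0.72 and -0.43 in *Tspan12* KO. *Cgnl1* stayed above WT in all 4 comparisons, between 0.29 and 0.42. The sparse *Marveld2* was 0.46 (-0.15 to 1.06) in cycling and -1.11 (-1.62 to -0.61) in other ECs of *Ctnnb1* cKO, the first within counting error of 0.

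**Figure D5:**
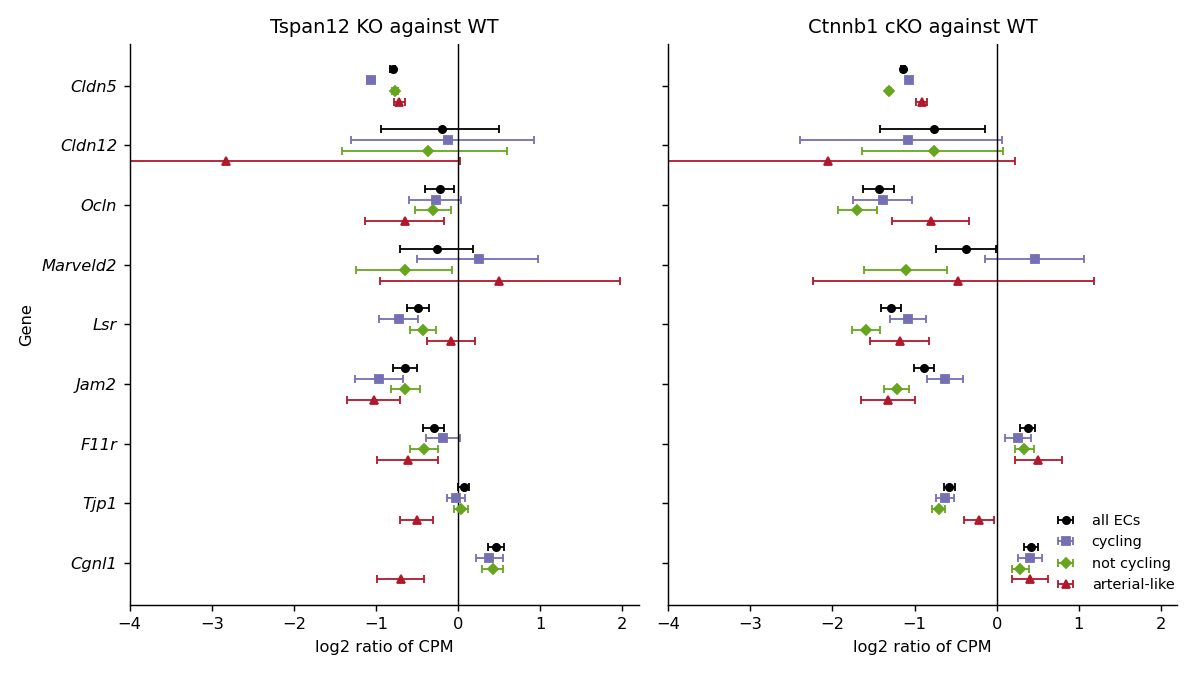
Log2 ratio of each member to WT in all ECs, cycling ECs, ECs not cycling and arterial-like ECs, for each knockout, with counting intervals on an axis ending at -4. *Cldn5* was below 0 in every set drawn for both knockouts, and *Ocln* and *Lsr* were below 0 in every set drawn for *Ctnnb1* cKO. Tip-like ECs are not drawn.

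A close pairing of subtypes between WT and *Ctnnb1* cKO was limited by the clusters themselves. When ECs of the 3 libraries were clustered together, 0 of the 10 subclusters held at least 20 cells of both WT and *Ctnnb1* cKO. Without subclusters made up of 1 library, only 37 *Ctnnb1* cKO ECs remained, in which *Cldn5* was -1.68 on the log2 scale relative to WT, *Jam2* 0.029 and *Cldn12* 0.066. WT and *Tspan12* KO shared the proliferative-like subcluster, with 176 and 111 cells, and there *Cldn5* was -1.07, *Jam2* -0.75, *Lsr* -0.51 and *Ocln* -0.49 on the log2 scale. They also shared a subcluster led by *Nebl*, *Apod* and *Egfl8* (301 and 64 cells), with *Cldn5* at -0.70, *Jam2* at -0.50, *Ocln* at -0.13 and *Lsr* at 0.26 (0.03 to 0.48). *Cldn5* and *Jam2* were lower in *Tspan12* KO in both sets, while the *Lsr* ratios lay on either side of 0 and short of 1.5-fold. In a further shared subcluster led by rod and haemoglobin genes (60 and 52 cells), *Cldn5* was -1.20, and *Jam2* 0.07 (-1.07 to 1.16). With each library clustered on its own, 87 WT and 61 *Tspan12* KO ECs were named capillary. *Cgnl1* was 210 CPM (178 to 245) and 340 CPM (313 to 369) in these. *Lsr* was 132 CPM (108 to 161) and 77.9 CPM (65.2 to 92.4), and *Cldn5* 5189 and 3360 CPM.

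Outside ECs, the same ratios gave a background for the less specific members. *Tjp1* in *Ctnnb1* cKO was below WT in rods, with a log2 ratio of -0.84 (-1.001 to -0.68), and in microglia, with -0.93 (-1.20 to -0.65), beside -0.57 in ECs. *Jam2* in *Ctnnb1* cKO was -0.53 (-0.63 to -0.42) in rods and -0.52 (-0.88 to -0.15) in microglia, beside -0.88 in ECs. *Tjp1* was also below WT in cones (-0.39, -0.57 to -0.22), amacrine cells (-0.38, -0.57 to -0.20) and progenitors (-0.57, -0.92 to -0.24). In neurogenic precursors it was -1.01 (-2.08 to -0.12). Of the classes compared, only bipolar cells were not below WT, at 0.01 (-0.67 to 0.63) from 23 *Ctnnb1* cKO UMIs. In the other classes *Jam2* lay between -0.38 in neurogenic precursors and 0.30 (-0.06 to 0.65) in progenitors, so *Jam2* was not lower in every class. An effect of the library and one of the genotype cannot be told apart. The *F11r* ratio in microglia, 0.10 (-0.07 to 0.27) for *Ctnnb1* cKO and -0.08 (-0.29 to 0.12) for *Tspan12* KO, was within counting error of 0. In cells with little *F11r* it was above WT in *Ctnnb1* cKO, at 1.87 (1.06 to 2.73) in rods, 3.04 (1.99 to 4.199) in cones and 1.11 (0.08 to 2.05) in amacrine cells. *Cgnl1* was above WT outside ECs in that library as well, at 1.32 (0.62 to 2.05) in rods, 2.22 (0.93 to 3.89) in microglia and 2.45 (1.56 to 3.32) in progenitors. In rods of WT and *Ctnnb1* cKO, *F11r* was 2.17 and 6.08% of the EC level and *Cgnl1* 2.75 and 5.13%. *Cldn5*, taken as background there, was 1.96 and 5.34%. The part of such background in these *F11r* and *Cgnl1* ratios was not tested.

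*Cldn5* went the other way outside ECs in *Ctnnb1* cKO, where the log2 ratio was 0.31 in rods and 0.52 in microglia, and in *Tspan12* KO it was -1.67 and -2.16. The share of ECs in each library had the same order, and the cause of these directions was not tested. *Ocln* had only 6, 5 and 3 UMIs in rods of WT, *Tspan12* KO and *Ctnnb1* cKO, too few for such a comparison. *Lsr* in rods was 3.56 CPM in WT and 5.73 CPM in *Ctnnb1* cKO, a log2 ratio of 0.69 (-0.15 to 1.53). Progenitors held some *Lsr*, and its log2 ratio there was -1.10 (-2.34 to -0.08) in *Ctnnb1* cKO, from 141 and 8 UMIs. In *Tspan12* KO progenitors *Lsr* was 0.50 (0.13 to 0.86). *Cldn12* in progenitors was -1.06 (-1.99 to -0.25) in *Ctnnb1* cKO and 0.05 (-0.27 to 0.37) in *Tspan12* KO. Outside ECs, the *Ctnnb1* cKO intervals of *Lsr* and *Cldn12* lay below 0 in progenitors only, from 8 and 13 *Ctnnb1* cKO UMIs. In the other non-endothelial classes compared they included 0, with ratios of either sign.

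Other genes of the tight junction were counted in the same way. Of 52 further genes of the junction found in the tables, 29 had enough counts in the *Tspan12* KO comparison and 30 in that of *Ctnnb1* cKO. In *Tspan12* KO, 4 were called lower and 1 higher, with a median log2 ratio of 0.04, and in *Ctnnb1* cKO 14 were called lower and 1 higher, with a median of -0.53. Of all genes tested, 10.3% and 25.9% were lower and 8.96% and 16.8% higher in these comparisons.

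The 4 genes called lower in *Tspan12* KO were *Cldn11*, *Ildr2*, *Pard6g* and *Magi3*, given here beside their *Ctnnb1* cKO values, which rest on the same WT library. *Ildr2*, which encodes angulin-3, was 36.5, 13.3 and 9.38 CPM in WT, *Tspan12* KO and *Ctnnb1* cKO ECs, or -1.45 (-1.80 to -1.13) and -1.96 (-2.26 to -1.68) relative to WT on the log2 scale. Progenitors held more *Ildr2* than ECs did, 140, 157 and 96.7 CPM. *Pard6g*, of the PAR polarity complex, was 9.68, 3.83 and 3.02 CPM (log2 ratios -1.34 and -1.68), and the scaffold *Magi3* was 191, 126 and 124 CPM (-0.59 and -0.62).

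*Cldn11*, a claudin known from oligodendrocytes and some endothelia, was nearly limited to the WT library. Its 69 WT EC UMIs came from 44 of 537 cells, with at most 6 in a cell, and it was counted 0 times in *Tspan12* KO and 1 time in *Ctnnb1* cKO ECs. At a floor of 3 counts, the *Tspan12* KO level was at least 9.30-fold lower than the 4.28 CPM of WT, the floor being taken over the pooled ECs. From its 1 UMI, the log2 ratio in *Ctnnb1* cKO was -5.79, with a wide counting interval of -11.11 to -3.26. *Cldn11* was scarcer in the knockouts outside ECs too, with 8, 0 and 1 UMIs in microglia and 12, 2 and 0 UMIs in progenitors.

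In *Tspan12* KO ECs the 1 gene called higher was *Prkcz*, the atypical kinase of the PAR complex, at 5.98 CPM against 2.73 CPM in WT (log2 ratio 1.13). In *Ctnnb1* cKO ECs it was *Amotl1*, an angiomotin, at 236 CPM against 111 CPM (1.09). *Amotl1* was 0.45 in *Tspan12* KO, below 1.5-fold, and *Prkcz* was -0.68 (-1.49 to 0.09) in *Ctnnb1* cKO. The next largest positive ratios were *Magi2* (0.48) and *Amotl2* (0.46) in *Tspan12* KO and *Micall2* (0.575) and *Arhgef2* (0.38) in *Ctnnb1* cKO, all short of 1.5-fold. *Magi2*, a membrane-associated scaffold, stood at 63.8, 89.1 and 24.2 CPM, so it was above WT in *Tspan12* KO and called lower in *Ctnnb1* cKO (-1.40).

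Across 13 sums of an endothelial subcluster in a library, *Cldn5*, *Ocln* and *Lsr* varied together and *F11r* and *Cgnl1* did not follow them. Pearson's r of log2(CPM + 5) was 0.87 between *Cldn5* and *Ocln*, 0.85 between *Ocln* and *Lsr* and 0.82 between *Cldn5* and *Lsr*, against -0.05 between *Cldn5* and *F11r* and 0.07 between *Cldn5* and *Cgnl1*. These 3 genes were not set apart from *Jam2* and *Tjp1*. *Jam2* had r of 0.82 with *Tjp1*, 0.79 with *Ocln* and 0.71 with *Cldn5*. *Tjp1* had 0.78 with *Ocln* and 0.77 with *Cgnl1*. The genes most like *Cldn5* were *Gphn* (r = 0.96), *Lmo2* (0.95) and *AU021092* (0.93), and those most like *Ocln* were *Tmem51* (0.95), *Ahcyl1* (0.95) and *Tcaf1* (0.94). For *Tjp1* they were *Sox7*, *Ttc14* and *Rundc3b*, each at 0.95. These values are descriptions: the 13 points share 3 libraries with their depth and genotype, and cells of a library are not independent of each other.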

How the data were processed

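The authors aligned the reads to the mouse genome and deposited, for each library, a filtered matrix of UMI counts per gene and cell barcode. The matrix headers name Cell Ranger 8.0.1, whereas the study's methods name another version, and the sources differ on the genome build, so no gene coordinates were taken from the count files. Barcodes were kept from 250 genes and 500 UMIs upwards, if mitochondrial counts were no more than 15%. Likely doublets were removed by Scrublet score, at 0.8% per 1000 barcodes. Cells of the 3 libraries were clustered together with Scanpy 1.11.5 (2000 variable genes, 30 components, 20 neighbours, Leiden resolution 1) without the tight junction genes, and clusters were named from marker lists. Counts were summed per class and library and divided by the summed total to give CPM. Intervals were exact Poisson for levels, exact conditional binomial for ratios and Clopper-Pearson for shares, all at 95%. A gene entered a comparison with at least 50 UMIs over both libraries and was called at 1.5-fold. Cells with at least 3 UMIs over 8 proliferative markers, at 2000 UMIs per cell, were called cycling. The ratio intervals were tried on simulated Poisson counts, which hold no variation between cells, mice or libraries and so address counting error only. TMM factors came from edgeR 4.0.16. The genes named were the 9 members, the 3 other tight junction genes with the largest ratios in each direction and those past 1.5-fold the same way in both knockouts, and the 3 genes most like each of *Cldn5*, *Ocln* and *Tjp1*. The members and lists were chosen with earlier results of these data known.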

Additional observations from a re-analysis of the deposited data

How the results depend on the processing

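No paired analysis was possible because there was 1 library per genotype, and for the same reason no replicate could be left out. Over the alternatives, 249 values moved by less than their counting interval, 113 moved further and 12 changed sign. *Cldn5* stayed past 1.5-fold lower in both knockouts in all 12. Its log2 ratio in *Tspan12* KO was -0.88 as a mean over cells, -0.83 with no doublet removal, -0.88 with ECs gated on markers, -0.90 after thinning, -0.76 after subtracting free RNA, -1.13 without subclusters made up of 1 library, and -1.11 in the EC cluster shared by the 3 libraries, an alternative added after seeing the data. In *Ctnnb1* cKO it was -0.99 with TMM, -1.40 as a mean over cells, -1.26 with the marker gate, -1.11 with each library clustered on its own, -0.99 at resolution 0.5, -1.45 after thinning, -1.68 without subclusters of 1 library and -1.44 in the shared cluster.

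Leaving out subclusters of 1 library kept 537, 227 and 37 ECs. With those 37 *Ctnnb1* cKO cells the median of the members in that knockout reversed to 0.012, with *Cldn12* at 0.066 and *Jam2* at 0.029, and 3 members were called lower and 1 higher. The cause was not tested, and few cells remain. In *Tspan12* KO the count of members called lower was 4 as a mean over cells, 3 after thinning, 1 with no doublet removal and 0 at 2-fold, and in *Ctnnb1* cKO it was 3 at 2-fold. *Ocln* and *Lsr* were past 1.5-fold in *Ctnnb1* cKO in all 12 alternatives, and *Jam2* in 11. Against microglia alone in place of all non-endothelial cells, the EC difference reversed to 3.47, 1.31 and 1.62 for *Cldn12*, 1.61, 0.72 and 1.24 for *Jam2*, and -0.32, -0.54 and -0.045 for *F11r* (WT, *Tspan12* KO, *Ctnnb1* cKO).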
